A study of Rattus norvegicus with 12 samples.

Results

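The comparison asked how the effect of deafening on the rat spiral ganglion differed between 2 ages. For every gene the effect at postnatal day 60 (P60, deaf against hearing) was set against the effect at postnatal day 32 (P32, deaf against hearing). The log2 difference of these effects is called the change below, and a positive value means that the ratio of deaf to hearing rats was higher at P60 than at P32. All genes that passed a filter on low counts were tested, 18057 of 32883, in 11 libraries, and 17789 were tested again with all 12. An effect that kept its sign and was larger in size at P60 is said to have grown. One that kept its sign and was smaller is said to have faded, and one that changed sign is said to have reversed.

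All rats were Sprague-Dawley. Deaf rats had been given kanamycin intraperitoneally as pups, 400 mg/kg once a day from P8 to P16, and hearing rats were littermates with no injection. Whole spiral ganglia were dissected at P32 or P60 from each condition, with 3 biological replicates in each of the 4 groups (P32 hearing, P32 deaf, P60 hearing and P60 deaf). The sources used here do not say how many animals went into a replicate. Loss of hair cells, the drug itself and the injections go together in these groups and cannot be told apart, and age goes together with the time since the last dose.

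The spiral ganglion holds the neurons that carry signals from the hair cells of the organ of Corti to the brainstem, with the Schwann cells and satellite glia around them and with macrophages, vessels and connective tissue. Aminoglycosides such as kanamycin kill hair cells. The neurons then lose their input and degenerate slowly, over weeks to months in rats, so that an early and a later age sample different stages. Injured peripheral nerve is known for the transcription factor Atf3, for glia that turn on repair genes such as Gfap, and for macrophages that take up debris.

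The libraries held 15646405 to 43453272 reads counted in genes. P32 hearing replicate 3 stood apart: its median correlation with the other libraries was 0.949, against 0.9771 to 0.9904 for the others, and it has no column in the authors' normalized table. Ribosomal protein genes summed to 20552 counts per 1000000 reads (CPM) in it, against 7849 and 7974 CPM in the other P32 hearing libraries, and macrophage genes to 1213 CPM against 583 and 603 CPM. Results below are from the 11 other libraries unless all 12 are named. Within P60 deaf, replicate 3 differed from its partners by a chi-square of 33.0 and 40.9 per gene, where the other pairs of the 11 libraries gave 4.24 to 9.19. Neuronal and Schwann cell markers were abundant, with Snap25 at 695 to 1257 CPM and the myelin gene Mbp at 4954 to 7382 CPM as group means. The hair cell markers Otof, Myo7a, Slc26a5 and Pou4f3 lay between 0.333 and 4.94 CPM in every group mean, in tissue from which the organ of Corti had been dissected away.

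The change differed from 0 in 14 genes (edgeR's quasi-likelihood test, Benjamini-Hochberg adjusted p under 0.05), which is 0.0775% of those tested. Of these, 13 had a positive change (0.072% of genes tested) and 1 a negative one (0.00554%). In 12 of the 14 the effect had grown, in every case towards higher levels in deaf rats: Dclk1, Dusp10, Plk2, Lgals3, Atf3, S100a4, Fabp7, Gpr83, Chl1, Mt2A, Glipr2 and Gfap. The other two, Acan and Grm5, had reversed, and 0 had faded. At an unadjusted p under 0.05 there were 1120 genes, 659 with a positive and 461 with a negative change. Of the 1120, 568 had grown, 40 had faded and 512 had reversed. The edgeR adjusted p-values among the 14 ran from 0.0169 to 0.0475.

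These calls rested on few libraries. With all 12 libraries edgeR called 0 genes (0%), with 805 at an unadjusted p under 0.05 and a smallest adjusted p of 0.0756, and limma voom called 0, DESeq2 27 and limma voom with library quality weights 38. All 14 kept their sign with 12 libraries, and all 14 were among the 50 smallest p-values there. That fit holds the same 11 libraries by which the genes were chosen, so it is no independent check. Of the 11 libraries, leaving out P32 deaf replicate 1, 2 or 3, P32 hearing replicate 1 or 2, or P60 hearing replicate 1 or 3 left 0 genes by edgeR, with 827 to 978 at an unadjusted p under 0.05. The count was 3 without P60 hearing replicate 2, and 29, 15 and 47 without P60 deaf replicate 1, 2 or 3.

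**Figure D1:**
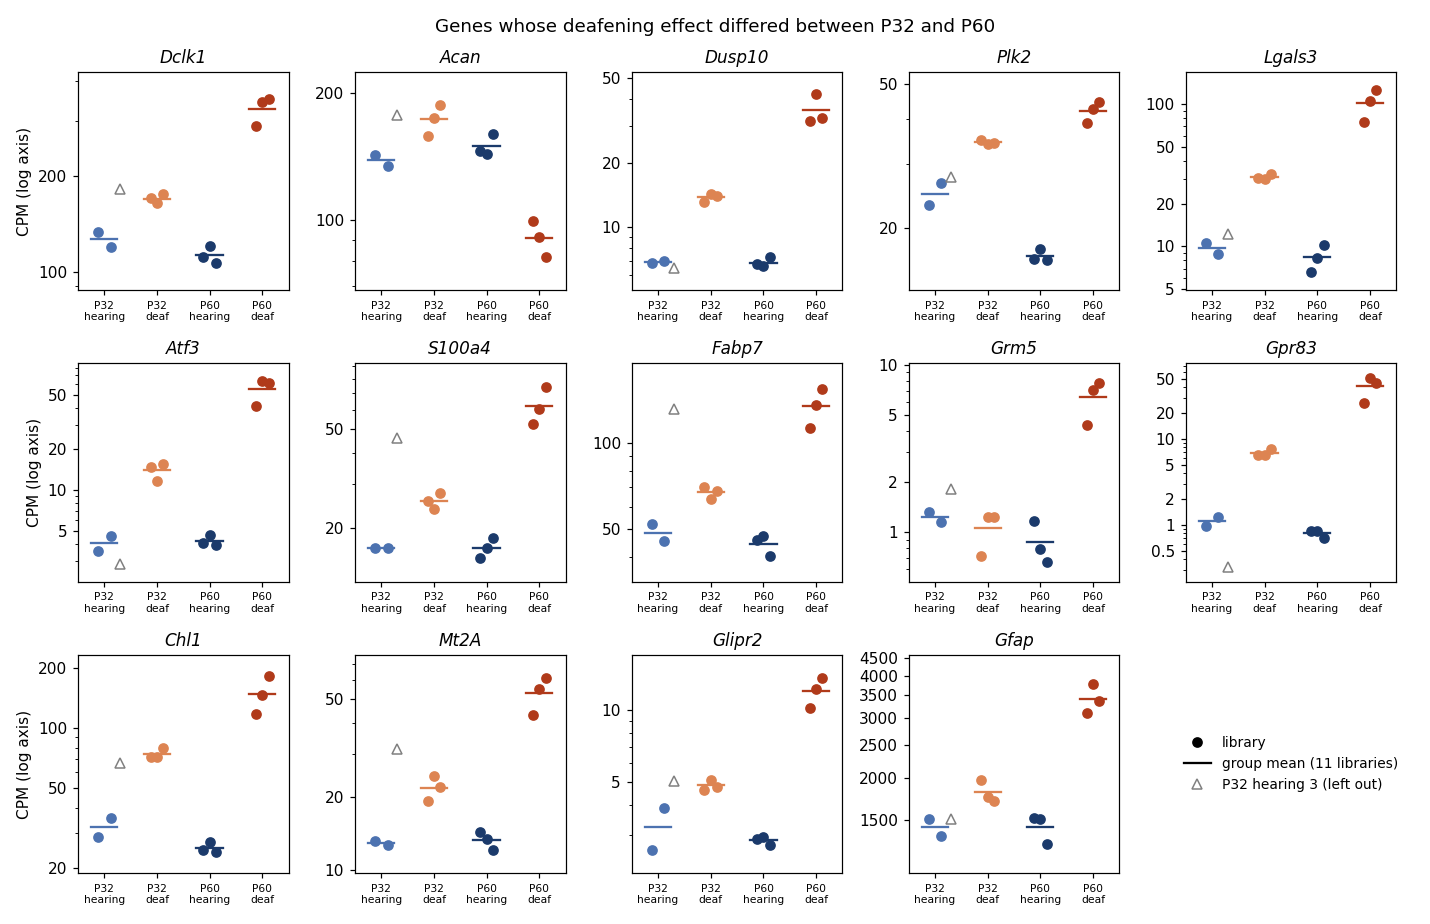
CPM on a log axis of the 14 genes whose change passed the threshold, by group. Circles are the 11 libraries, bars their group means and the open triangle P32 hearing replicate 3, which was left out. In 13 panels the P60 deaf circles lie above all other circles, and in the panel of Acan they lie below them. The genes were chosen by their change in these same libraries, which favours such separation. Its share over all genes was not counted. In the panel of Fabp7 the triangle lies among the P60 deaf circles.

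In 13 of the 14 genes the deaf ganglion itself differed between the ages (P60 deaf against P32 deaf, edgeR adjusted p under 0.05), against 3.08% of all genes tested. The change by which the 14 were chosen includes this difference, so their choice favours it. In hearing rats 1 of the 14 differed between the ages, Plk2, against 0.227% of all genes. For Plk2 the hearing level was lower at P60 (log2 difference -0.57, edgeR adjusted p = 0.0185), and the deaf level did not pass (0.29, edgeR adjusted p = 0.0723). In all 14 genes P60 deaf replicate 1 was the library of its group nearest to the P60 hearing mean. How often this held over all genes was not counted, so it is not shown to be particular to these 14. As a difference of mean CPM rather than a ratio, the change had the same sign in all 14. These CPM come from the same counts by which the genes were chosen.

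The promoters of the called genes are shown because Atf3 belongs to the family of factors that bind the sequences TGANTCA and TGACGTCA, and its effect grew between the ages as did those of 11 other called genes, while those of Acan and Grm5 reversed. The 250 bases before the start site of 12 of the 14 genes were found in RefSeq's table (build GRCr8), which has no entry for Atf3 or Lgals3. TGANTCA, which reads the same on both strands, was found in 2 of the 12, Dclk1 and Mt2A. It occurs in 6.36% of all 27457 promoters of this length and in 4.68% of the 11386 that belong to genes tested here. TGACGTCA, which also reads the same on both strands and cannot match the shorter motif, was in Plk2, and it occurs in 1.70% of all promoters and 2.69% of those of genes tested. TTCNNNGAA, the motif of STAT factors, was in 0 of the 12 and occurs in 7.52% of all promoters and 5.93% of those of genes tested. These matches describe letters in the window and were not tested as sites. The 3 promoters with a match follow from 5′ to 3′ on the gene's strand, with the matches in capitals. Dclk1 is at chr2:141782634-141782883 on the plus strand, with matches that begin 236 and 197 bases before the start site. Plk2 is at chr2:43702286-43702535 on the plus strand, with a match from 66 bases before it, and Mt2A at chr19:10838709-10838958 on the minus strand, with a match from 237 bases before it.
Dclk1: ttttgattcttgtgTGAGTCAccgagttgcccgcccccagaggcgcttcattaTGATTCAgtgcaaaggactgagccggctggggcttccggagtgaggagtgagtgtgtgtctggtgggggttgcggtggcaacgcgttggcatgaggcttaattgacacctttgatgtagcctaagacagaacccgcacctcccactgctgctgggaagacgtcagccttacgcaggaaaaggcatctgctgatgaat
Plk2: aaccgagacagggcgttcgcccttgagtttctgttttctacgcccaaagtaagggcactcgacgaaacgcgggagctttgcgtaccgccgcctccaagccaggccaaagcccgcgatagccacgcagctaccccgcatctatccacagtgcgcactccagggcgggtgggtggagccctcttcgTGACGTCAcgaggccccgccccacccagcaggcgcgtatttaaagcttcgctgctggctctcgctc
Mt2A: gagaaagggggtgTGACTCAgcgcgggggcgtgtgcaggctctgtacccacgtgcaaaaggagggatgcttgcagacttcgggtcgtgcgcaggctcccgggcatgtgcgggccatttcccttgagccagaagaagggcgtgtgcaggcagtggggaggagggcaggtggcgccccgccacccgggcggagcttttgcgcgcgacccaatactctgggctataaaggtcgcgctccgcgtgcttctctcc

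Among stress and injury genes, Atf3, a transcription factor that injured neurons and glia turn on, had 3.56 and 4.60 CPM in P32 hearing libraries and 14.9, 11.5 and 15.6 CPM in P32 deaf libraries. At P60 it had 4.09, 4.62 and 3.90 CPM in hearing and 41.6, 63.9 and 61.2 CPM in deaf libraries. Every deaf library lay above every hearing library at both ages, and hearing libraries of the 2 ages overlapped. The effect grew from 3.38-fold to 13.1-fold (change 1.96 ± 0.28 SE on the log2 scale, edgeR adjusted p = 0.0223, 1.82 with 12 libraries). Gadd45a, a stress gene of growth arrest, was 1.17-fold higher at P32 and 2.64-fold at P60 but did not pass for the change (1.18 ± 0.20, edgeR adjusted p = 0.0560, 1.29 with 12 libraries). Jun, the usual partner of Atf3, went from 1.37-fold to 1.77-fold with a change of 0.37 ± 0.20 (edgeR adjusted p = 0.876, 0.28 with 12 libraries).

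Of 29 genes of axon injury and regrowth, 1 passed for the change, Atf3, and 20 lay above 0, against 50.8% of all genes tested. At an unadjusted p under 0.05 there were 8 above and 2 below, against 659 and 461 of 18057 genes. Their median change was 0.25, against 0.00430 over all genes, and their median effect was 0.18 at P32 and 0.50 at P60 on the log2 scale. The growth-associated protein Gap43 had a change of 0.77 ± 0.18 (edgeR adjusted p = 0.257) and the small heat shock protein Hspb1 one of 1.24 ± 0.30 (edgeR adjusted p = 0.288). In the fit of 12 libraries the median change was 0.36, with 19 above 0.

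Among signalling enzymes, Dusp10, a phosphatase that switches off MAP kinases, had 6.81 and 7.001 CPM in P32 hearing and 13.2, 14.4 and 14.1 CPM in P32 deaf libraries. Its P60 levels were 6.72, 6.58 and 7.24 CPM in hearing and 31.6, 42.4 and 32.5 CPM in deaf libraries. Hearing libraries were alike at both ages, while all P60 deaf libraries lay above all P32 deaf libraries. The effect grew from 2.01-fold to 5.21-fold (change 1.37 ± 0.18, edgeR adjusted p = 0.0223, 1.35 with 12 libraries). Dclk1, a kinase that binds microtubules, had the smallest p of all genes. It went from 127 ± 9.95 to 170 ± 5.32 CPM at P32 (SD, n = 2 and 3) and from 113 ± 7.17 to 327 ± 33.9 CPM at P60 (n = 3 and 3), a change of 1.10 ± 0.13 (edgeR adjusted p = 0.0169, 1.32 with 12 libraries). Plk2, a polo-like kinase, was 1.39-fold higher in deaf rats at P32 and 2.51-fold at P60, a change of 0.86 ± 0.12 (0.93 with 12 libraries).

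Among glial genes, Gfap, the intermediate filament of reactive and repair glia, had 1513 and 1345 CPM in P32 hearing and 1966, 1762 and 1712 CPM in P32 deaf libraries. At P60 it had 1522, 1511 and 1273 CPM in hearing and 3105, 3795 and 3380 CPM in deaf libraries. The P32 groups did not overlap but lay close together, and the P60 deaf libraries stood well above all others. The effect was 1.27-fold at P32, which did not pass (edgeR adjusted p = 0.120), and 2.39-fold at P60, with a change of 0.91 ± 0.15 (edgeR adjusted p = 0.0475, 0.96 with 12 libraries).

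Fabp7, a fatty acid binding protein of immature and satellite glia, had 52.0 and 45.4 CPM in P32 hearing and 70.1, 63.9 and 68.1 CPM in P32 deaf libraries. Its P60 levels were 45.8, 47.3 and 40.4 CPM in hearing and 113, 136 and 154 CPM in deaf libraries. Hearing levels at the 2 ages overlapped, and deaf levels did not. The effect went from 1.38-fold to 3.01-fold (change 1.12 ± 0.16, edgeR adjusted p = 0.0223). P32 hearing replicate 3 had 132 CPM of Fabp7, as much as P60 deaf libraries, and with it the P32 effect was -0.19 and the change 1.80 (edgeR adjusted p = 0.692).

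Chl1, a cell adhesion protein of the L1 family, went from 32.03 ± 4.77 to 74.5 ± 4.65 CPM at P32 (SD, n = 2 and 3) and from 25.2 ± 1.58 to 149 ± 32.5 CPM at P60 (n = 3 and 3). Its change was 1.35 ± 0.20 (edgeR adjusted p = 0.0279, 1.82 with 12 libraries). S100a4, a calcium-binding protein of motile and mesenchymal cells, went from 16.6 ± 0.0423 to 25.7 ± 1.93 CPM at P32 and from 16.7 ± 1.57 to 62.2 ± 10.96 CPM at P60 (change 1.27 ± 0.18, edgeR adjusted p = 0.0223). P32 hearing replicate 3 had 67.3 CPM of Chl1 and 45.9 CPM of S100a4, above the other P32 hearing libraries in both cases. With it the P32 effect of S100a4 was -0.03 and its change 1.95. Over the 14 genes that library lay above both other P32 hearing libraries in 11 and below both in 3, which were Dusp10, Atf3 and Gpr83. The share of all genes for which it lay outside both was not counted. Its position is thus not shown to be particular to these 14.

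Of 32 genes of nonmyelinating and repair glia, 3 passed for the change, Fabp7, Chl1 and Gfap, all upwards, beside the 13 of 18057 genes that passed upwards. Of the 32, 22 lay above 0, against 50.8% of all genes tested. At an unadjusted p under 0.05 14 were above and 0 below, against 659 and 461 of 18057 genes. The median effect was 0.33 at P32 and 0.81 at P60, and the median change 0.36, against 0.00430 over all genes. Among members that did not pass, the growth factor Btc had a change of 1.28 ± 0.23 (edgeR adjusted p = 0.0861), the intermediate filament Vim 0.71 ± 0.13 (0.112), the hyaluronan receptor Cd44 0.87 ± 0.18 (0.187) and the neurotrophin receptor Ngfr 0.95 ± 0.27 (0.445). The summed level of the list was 4845 to 5003 CPM in P32 hearing, 6314 to 6405 CPM in P32 deaf, 4679 to 5021 CPM in P60 hearing and 8527 to 9897 CPM in P60 deaf libraries. With all 12 libraries 23 members lay above 0 and the median change was 0.40.

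The list of myelinating Schwann cells lay on the other side. Of its 30 genes 0 passed for the change by edgeR. There were 2 above 0 and 28 at or below it, where 50.8% of all genes lay above 0. At an unadjusted p under 0.05 there were 0 above and 5 below, against 659 and 461 of 18057 genes. The median effect was 0.03 at P32 and -0.14 at P60, and the median change -0.14. The gap junction gene Gjc3 had a change of -0.45 ± 0.11 (edgeR adjusted p = 0.381) and gliomedin, Gldn, one of -0.42 ± 0.10 (0.248). Mbp, a main protein of myelin, had 7382 ± 950 and 7173 ± 397 CPM at P32 and 5545 ± 622 and 4954 ± 222 CPM at P60 in hearing and deaf rats (change -0.12 ± 0.15, edgeR adjusted p = 0.941, -0.17 with 12 libraries). With 12 libraries 11 of the 30 lay above 0 and the median change was -0.17.

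Among phagocyte genes, Lgals3, the lectin galectin-3 of active macrophages and other injured tissue cells, had 10.6 and 8.89 CPM in P32 hearing and 30.2, 29.9 and 32.4 CPM in P32 deaf libraries. At P60 it had 6.59, 8.32 and 10.2 CPM in hearing and 75.1, 106 and 127 CPM in deaf libraries. The groups of deaf and hearing rats did not overlap at either age, and every P60 deaf library was above every P32 deaf library. The effect grew from 3.17-fold to 12.2-fold (change 1.95 ± 0.27, edgeR adjusted p = 0.0223, 2.09 with 12 libraries). Gpnmb, a membrane glycoprotein of lipid-laden phagocytes, was already 4.89-fold higher at P32 and was 7.94-fold higher at P60, with a change that did not pass (0.70 ± 0.20, edgeR adjusted p = 0.446, 0.91 with 12 libraries). Slc43a3, a membrane transporter, also had a P32 effect that passed, 2.24-fold, and was 3.69-fold higher at P60 without passing for the change (0.72 ± 0.12, edgeR adjusted p = 0.0560, 0.62 with 12 libraries). Ncf1, a subunit of the oxidase that makes superoxide, went from 1.22-fold to 2.49-fold and did not pass (1.03 ± 0.18, edgeR adjusted p = 0.0584, 0.94 with 12 libraries).

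Of 28 genes of phagocyte lysosomes and lipid handling, 1 passed for the change, Lgals3, and 21 lay above 0, against 50.8% of all genes. Their median effect was 0.23 at P32 and 0.48 at P60, and the median change 0.21, or 0.38 with all 12 libraries. Of 36 macrophage genes 0 passed by edgeR, and 31 lay above 0. At an unadjusted p under 0.05 there were 8 above and 0 below, against 659 and 461 of 18057 genes. The median effect of the macrophage list was 0.64 at P32, where 21 of the 36 rose, and 0.94 at P60, where 30 rose, against 1.55% and 8.84% of all genes that rose at these ages. Its median change was 0.26, and 0.53 with all 12 libraries. In the fit of 12 the median effect of this list was 0.39 at P32 and 0.97 at P60. There 3 of the 36 rose at P32 and 16 at P60, against 40 and 399 of 17789 genes. None of the defining markers passed for the change: Csf1r, the receptor for the macrophage growth factor, had a change of 0.35 ± 0.13, Aif1 one of 0.24 ± 0.18, Ptprc 0.24 ± 0.18 and Cd68 0.06 ± 0.23 (edgeR adjusted p from 0.628 to 0.981). The summed level of the list was 600 to 618 CPM in P32 hearing, 933 to 993 CPM in P32 deaf, 621 to 824 CPM in P60 hearing and 1274 to 1563 CPM in P60 deaf libraries, and its part in the change of Lgals3 was not tested. In bulk tissue a different number of cells of a type and a different amount of RNA per cell cannot be told apart.

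Of 28 complement genes 0 passed for the change by edgeR, with a median effect of 0.50 at P32 and 0.64 at P60. At an unadjusted p under 0.05 there were 4 above and 0 below, against 659 and 461 of 18057 genes. The median change was 0.16, or 0.28 with all 12 libraries. C3, the central component of the cascade, had 55.9 and 52.5 CPM in P32 hearing, 105, 106 and 118 CPM in P32 deaf, 69.1, 84.2 and 73.5 CPM in P60 hearing and 175, 199 and 134 CPM in P60 deaf libraries. Both groups of C3 stood higher at P60 by a similar ratio, so that the effect was 2.03-fold and then 2.24-fold (change 0.15 ± 0.18, edgeR adjusted p = 0.941).

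Both receptors among the calls couple to G proteins. Gpr83 had 0.967 and 1.26 CPM in P32 hearing and 6.48, 6.52 and 7.62 CPM in P32 deaf libraries. Its P60 levels were 0.861, 0.854 and 0.702 CPM in hearing and 26.3, 51.1 and 45.2 CPM in deaf libraries. Hearing libraries stayed near 1 CPM at both ages, and the lowest P60 deaf library was above the highest P32 deaf library. The effect went from 6.06-fold to 50.2-fold (change 3.05 ± 0.44, edgeR adjusted p = 0.0228, 2.75 with 12 libraries), and its ratio between the ages, 8.29, was the highest among the 12 genes that had grown.

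Grm5, a metabotropic glutamate receptor of neurons and glia, had 1.32 and 1.14 CPM in P32 hearing and 0.720, 1.22 and 1.23 CPM in P32 deaf libraries. At P60 it had 1.16, 0.790 and 0.658 CPM in hearing and 4.38, 7.10 and 7.82 CPM in deaf libraries. The P32 groups overlapped, and the P60 deaf libraries were the 3 highest of the 11. The P32 effect was -0.17 ± 0.33 (edgeR adjusted p = 0.882) and the P60 effect 2.88 ± 0.28, so that its reversed sign rested on a P32 value whose error spans 0. The change was 3.06 ± 0.44 (edgeR adjusted p = 0.0223, 3.28 with 12 libraries).

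The remaining calls were a metal-binding protein and a membrane-associated one. Mt2A, a metallothionein with near-identical copies to which its reads may also belong, went from 12.9 ± 0.329 to 21.8 ± 2.57 CPM at P32 (SD, n = 2 and 3) and from 13.3 ± 1.10 to 53.1 ± 9.03 CPM at P60 (n = 3 and 3). Its change was 1.23 ± 0.19 (edgeR adjusted p = 0.0369), and 1.82 with P32 hearing replicate 3, which had 31.5 CPM. Glipr2, a protein of Golgi membranes, went from 3.24 ± 0.915 to 4.83 ± 0.247 CPM at P32 and from 2.85 ± 0.115 to 12.004 ± 1.74 CPM at P60 (change 1.504 ± 0.24, edgeR adjusted p = 0.0473, 1.75 with 12 libraries).

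Acan was the 1 gene with a negative change. It encodes aggrecan, a proteoglycan of cartilage and of the matrix around some neurons. It had 143 and 134 CPM in P32 hearing and 158, 174 and 187 CPM in P32 deaf libraries. Its P60 levels were 145, 143 and 160 CPM in hearing and 99.7, 91.0 and 82.0 CPM in deaf libraries. Deaf libraries lay above hearing libraries at P32 and below them at P60, with no overlap at either age. The effect was 1.25-fold higher at P32, which did not pass (edgeR adjusted p = 0.0927), and 1.64-fold lower at P60 (edgeR adjusted p = 0.000148), with a change of -1.04 ± 0.13 (edgeR adjusted p = 0.0223, -0.89 with 12 libraries). P32 hearing replicate 3 had 177 CPM, within the range of the P32 deaf libraries, and with it the P32 effect was 0.19.

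Of 24 genes of bone and cartilage Acan was the 1 that passed for the change. Above 0 lay 7 of the 24, against 50.8% of all genes tested. The median change was -0.16. With all 12 libraries it was 0.01, and 12 of 23 members tested lay above 0. The cartilage collagen Col2a1 had 257 ± 17.6 and 274 ± 20.3 CPM at P32 and 141 ± 5.63 and 104 ± 36.4 CPM at P60 in hearing and deaf rats (change -0.54 ± 0.29, edgeR adjusted p = 0.858). The cartilage regulator Sox9 had a change of -0.64 ± 0.29 (edgeR adjusted p = 0.789). Runx2 of the same list went the other way, with a change of 0.44 ± 0.13 (edgeR adjusted p = 0.468). The effect on Runx2 was 0.57 at P32 and 1.01 at P60 on the log2 scale. The list summed to 2163 to 2649 CPM in P32 hearing, 2602 to 2666 CPM in P32 deaf, 1395 to 1670 CPM in P60 hearing and 1207 to 1583 CPM in P60 deaf libraries. Its part in the change of Acan was not tested.

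Reversal with support at both ages was uncommon. Opposite effects with an unadjusted p under 0.05 at each age were found in 18 of the 18057 genes tested. The number that would arise without any reversal was not estimated. Among the 14 called genes Acan was the 1 with this pattern. Of 585 genes called at both ages, 584 had the same sign, and the exception was Myoc, the secreted protein myocilin. Myoc had 43.1 and 44.4 CPM in P32 hearing and 56.7, 63.8 and 79.3 CPM in P32 deaf libraries, and 62.2, 63.2 and 60.1 CPM in P60 hearing and 42.5, 52.9 and 42.6 CPM in P60 deaf libraries. Deaf libraries were the higher at P32 and the lower at P60, without overlap. It was 1.52-fold higher (edgeR adjusted p = 0.0240) and then 1.34-fold lower (edgeR adjusted p = 0.0223), and its change did not pass (-1.03 ± 0.17, edgeR adjusted p = 0.0560, -0.76 with 12 libraries).

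The calcium-binding protein Calb1 and the actin nucleator Fmn1 were next among reversed genes by p and did not pass for the change. Calb1, found in a subset of spiral ganglion neurons, had 44.3 ± 3.501 and 38.7 ± 2.81 CPM at P32 and 34.6 ± 3.59 and 54.3 ± 4.83 CPM at P60 in hearing and deaf rats (change 0.84 ± 0.14, edgeR adjusted p = 0.0560). Fmn1 was 1.03-fold lower at P32 and 1.74-fold higher at P60 (0.84 ± 0.14, edgeR adjusted p = 0.0584). With 12 libraries their changes were 1.25 and 0.95. The P32 effect was -0.20 ± 0.11 for Calb1 and -0.04 ± 0.11 for Fmn1, and neither passed (edgeR adjusted p = 0.397 and 0.917).

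**Figure D2:**
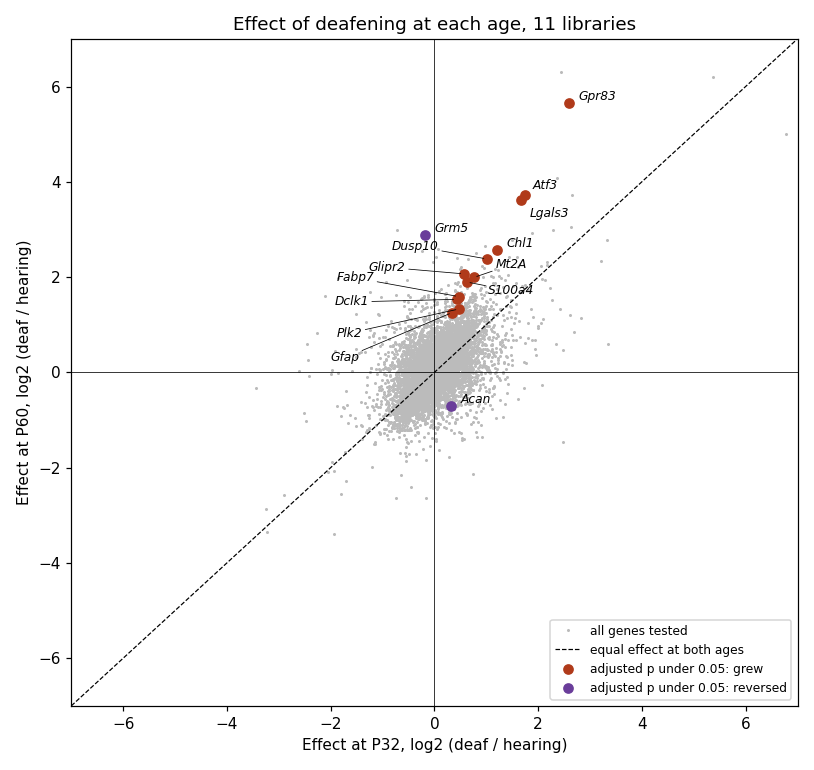
Effect of deafening at P60 against the effect at P32, log2 (deaf / hearing), for each of the 18057 genes tested in 11 libraries. The 12 genes that grew lie above the diagonal of equal effects in the upper right quadrant, Grm5 lies left of the vertical line at 0 and Acan lies below the horizontal one.

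Most effects kept their direction between the ages, which share no libraries. Deafening changed 641 genes at P32 (3.55% of those tested, 279 higher and 362 lower) and 3321 at P60 (18.4%, 1596 higher and 1725 lower). Of the 641, 636 had the same sign at P60, and their median effect in the P32 direction was 0.57 at P32 and 0.68 at P60. Their choice at P32 favours high P32 values. Of the 636, 430 were larger at P60, a share similar to the 8651 of 12861 same-sign genes over all genes tested. Of the 3321, 3170 had the same sign at P32, with a median of 0.28 at P32 and 0.51 at P60, where choice favours P60. Over all 18057 genes tested, 12861 (71.2%) had the same sign at both ages and 8651 had the same sign and were larger at P60. Across the 18057 genes the effects had a Pearson correlation of 0.55 and a Spearman correlation of 0.55, over genes that share libraries within each age and are not independent. In the fit of 12 libraries 56 genes passed at P32 (0.315%) and 578 at P60 (3.25%). The count at P32 ran from 207 to 268 without P32 deaf replicate 1, 2 or 3, was 223 and 30 without P32 hearing replicate 1 or 2, and was 2050 without P60 deaf replicate 3, and the count at P60 was 1959 without P60 hearing replicate 1.

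The larger count at P60 does not show that these effects changed. Of 2736 genes called at P60 and not at P32, 2586 had the same sign at P32, and 5 passed for the change itself: Acan, Fabp7, Grm5, Glipr2 and Gfap. P60 was measured in 6 libraries and P32 in 5, and the median SE of an effect was 0.124 and 0.136. The effects themselves had an SD over genes of 0.433 at P60 and 0.349 at P32. The part of each in the larger count was not tested. The median SE of the change was 0.184.

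No gene passed as faded, with edgeR, DESeq2 or limma voom. Of 56 genes called at P32 and not at P60, 0 passed for the change by edgeR, 31 did at an unadjusted p under 0.05, and 52 had the same sign at P60. Their median effect in the P32 direction was 0.64 at P32 and 0.24 at P60. The choice of these 56 favours such a drop and a small unadjusted p for the change. Of the genes whose signs and sizes put them in the faded class, those with the smallest p, chosen after their values were seen, were Tlr5, the receptor for bacterial flagellin, and Cyp2j4, a cytochrome P450. Tlr5 had 0.648 ± 0.0680 and 1.73 ± 0.339 CPM at P32 and 0.857 ± 0.108 and 0.902 ± 0.107 CPM at P60 in hearing and deaf rats (change -1.33 ± 0.37, edgeR adjusted p = 0.445, -1.57 with 12 libraries). Cyp2j4 was 1.996-fold higher at P32 and 1.49-fold at P60 (change -0.43 ± 0.13, edgeR adjusted p = 0.486, -0.18 with 12 libraries). Among genes lower in deaf rats, Rgs4, a brake on G protein signalling in neurons, was 1.54-fold lower at P32 and 1.04-fold lower at P60 (change 0.56 ± 0.18, edgeR adjusted p = 0.547, 0.81 with 12 libraries), and its hearing level was itself lower at P60 (115 ± 8.55 to 47.9 ± 4.99 CPM).

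The interferon response was the list with the most members in the faded class. Of its 40 genes 34 were in that class, 5 had grown and 1 had reversed. Over all 18057 genes tested, 4210 were in the faded class, 8651 had grown and 5196 had reversed. Of the 40, 0 passed for the change by edgeR, with 0 at an unadjusted p under 0.05. The median effect was 0.94 at P32, where 17 of the 40 rose, and 0.68 at P60, where 16 rose, against 1.55% and 8.84% of all genes. The median change was -0.20 and 6 of the 40 lay above 0, against 9177 of 18057 genes. Cxcl10, an interferon-induced chemokine, had an effect of 3.21 at P32 and 2.34 at P60 (change -0.87 ± 0.48, edgeR adjusted p = 0.876), and Mx1, an antiviral GTPase, 2.27 and 1.52 (-0.75 ± 0.64, 0.932). The summed level was 646 to 807 CPM in P32 hearing and 1247 to 1448 CPM in P32 deaf libraries, and 665 to 1239 CPM in P60 hearing and 1284 to 1682 CPM in P60 deaf libraries, so that P60 hearing libraries spread more widely than P32 hearing libraries. In the fit of 12 libraries the median change was 0.13, with 24 above 0. There 24 of the 40 had grown and 16 had faded, so the faded majority did not hold. Leaving out 1 of the 11 libraries at a time, the median change ran from -0.44 to 0.02. The positive value was without P60 hearing replicate 2.

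The neuronal genes Slc17a7, Calb2, Snap25 and Nefl fell in deaf rats at both ages, and none of the 4 passed for the change. Slc17a7, the transporter that loads glutamate into synaptic vesicles, had 588 and 628 CPM in P32 hearing and 364, 369 and 407 CPM in P32 deaf libraries. At P60 it had 761, 627 and 686 CPM in hearing and 343, 342 and 265 CPM in deaf libraries. Deaf libraries were below hearing libraries at both ages, and P60 deaf replicate 3 was the lowest. The effect was 1.601-fold lower and then 2.18-fold lower (change -0.45 ± 0.16, edgeR adjusted p = 0.598, -0.52 with 12 libraries). Calb2, a calcium-binding protein of many of these neurons, was 1.83-fold and 2.06-fold lower (-0.17 ± 0.17, edgeR adjusted p = 0.937) and the vesicle fusion protein Snap25 1.53-fold and 1.81-fold lower (-0.24 ± 0.16, 0.897). The neurofilament Nefl was 1.58-fold and 1.54-fold lower (0.04 ± 0.15, 0.982). The signs of the changes of Calb2 and Nefl turned with all 12 libraries, to 0.12 and -0.13.

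Of 30 general neuronal genes 0 passed for the change by edgeR. At an unadjusted p under 0.05 there were 3 above and 3 below, against 659 and 461 of 18057 genes. Of the 30, 11 fell at P32 and 21 at P60, where 2% and 9.55% of all genes fell. With 12 libraries 0 of the 30 fell at P32 and 4 at P60, where 16 and 179 of 17789 genes fell. Their median effect in 11 libraries was -0.50 at P32 and -0.64 at P60. The median change was -0.16, or -0.19 with 12 libraries. Of 31 spiral ganglion neuron genes 0 passed, with 2 above and 8 below, and the median effect was -0.31 and then -0.50, with a median change of -0.09, or -0.14 with 12 libraries. Lypd1, a membrane protein of a neuronal subtype, had the smallest p of that list with a negative change (-0.71 ± 0.13, edgeR adjusted p = 0.0830). The general neuronal list summed to 11918 to 13326 CPM in P32 hearing, 8627 to 9087 CPM in P32 deaf, 12149 to 13166 CPM in P60 hearing and 8876, 7461 and 6473 CPM in P60 deaf replicates 1, 2 and 3. The lowest P60 deaf library was thus below all P32 deaf libraries, and the highest was among them.

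**Figure D3:**
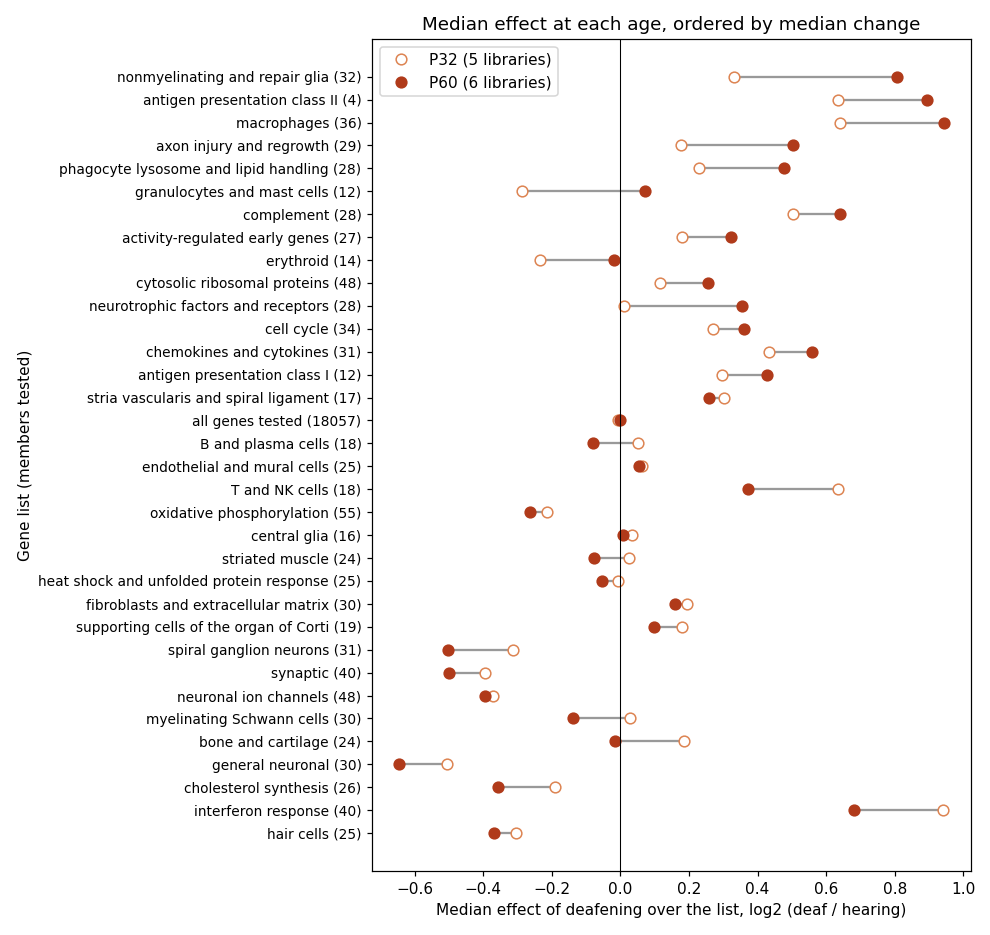
Median effect of deafening over each gene list at P32 (open circles) and P60 (filled circles), log2 (deaf / hearing) in 11 libraries, with the number of members tested in brackets. The median of repair glia is 0.33 at P32 and 0.81 at P60, that of the interferon response 0.94 and 0.68, and all genes tested sit at 0 at both ages.

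Of the 28 neurotrophic factors and their receptors 0 passed for the change by edgeR. At an unadjusted p under 0.05 there were 4 above and 0 below, against 659 and 461 of 18057 genes. At P60 10 of the 28 rose and 4 fell, against 8.84% and 9.55% of all genes. Bdnf, a survival factor of these neurons, had an effect of -0.20 at P32 and 1.59 at P60 (change 1.80 ± 0.42, edgeR adjusted p = 0.257). Of 27 activity-regulated early genes Atf3 was the 1 that passed, and Fos had a change of 0.41 ± 0.19 (edgeR adjusted p = 0.803). Of 26 genes of cholesterol synthesis 0 passed, with 0 above and 2 below, and 3 lay above 0, against 50.8% of all genes. The median effect was -0.19 at P32, where 0 fell, and -0.36 at P60, where 17 fell, against 2% and 9.55% of all genes. Of 48 cytosolic ribosomal protein genes 0 passed, with 4 above and 0 below, and the median change was 0.14, or 0.79 with all 12 libraries. That of 55 genes of oxidative phosphorylation was -0.03, or 0.38 with all 12 and 0.04 without P60 deaf replicate 2.

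**Figure D4:**
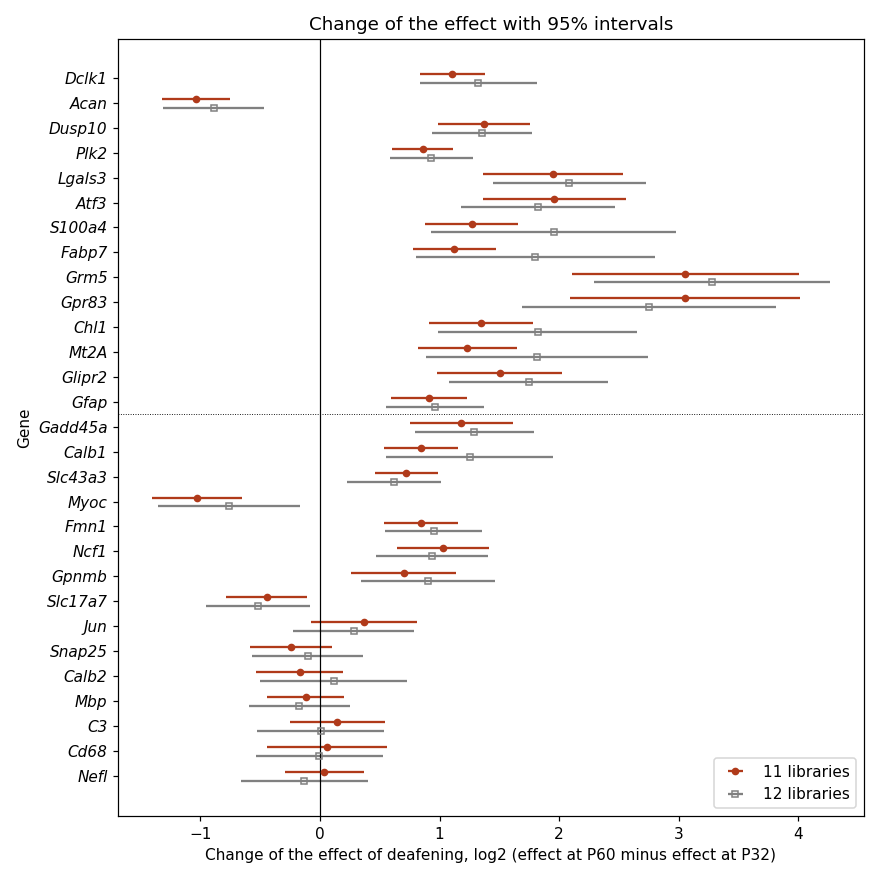
Change of the effect of deafening with its 95% interval, log2 (effect at P60 minus effect at P32), from 11 libraries (filled) and all 12 (open). The 14 genes above the dotted line passed the threshold with 11 libraries, and their intervals exclude 0 in both fits, which share these 11.

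The plot of intervals shows where the fits of 11 and 12 libraries part. Among the 14 called genes the interval with 12 libraries excluded 0 in each, but it was wider, for S100a4 0.93 to 2.98 against 0.88 to 1.65 with 11 libraries and for Fabp7 0.80 to 2.80 against 0.78 to 1.47. For Atf3 it was 1.18 to 2.47 against 1.36 to 2.56 and for Dusp10 0.94 to 1.77 against 0.99 to 1.76. For Cd68 and C3, by contrast, the interval with 11 libraries spanned 0, from -0.45 to 0.56 and from -0.25 to 0.54.

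The plot of counts by setting gathers the number of genes past the threshold for the change. The count was 14 with edgeR on 11 libraries, 2 with limma voom and 70 with DESeq2, and faded genes numbered 0 in each.

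**Figure D5:**
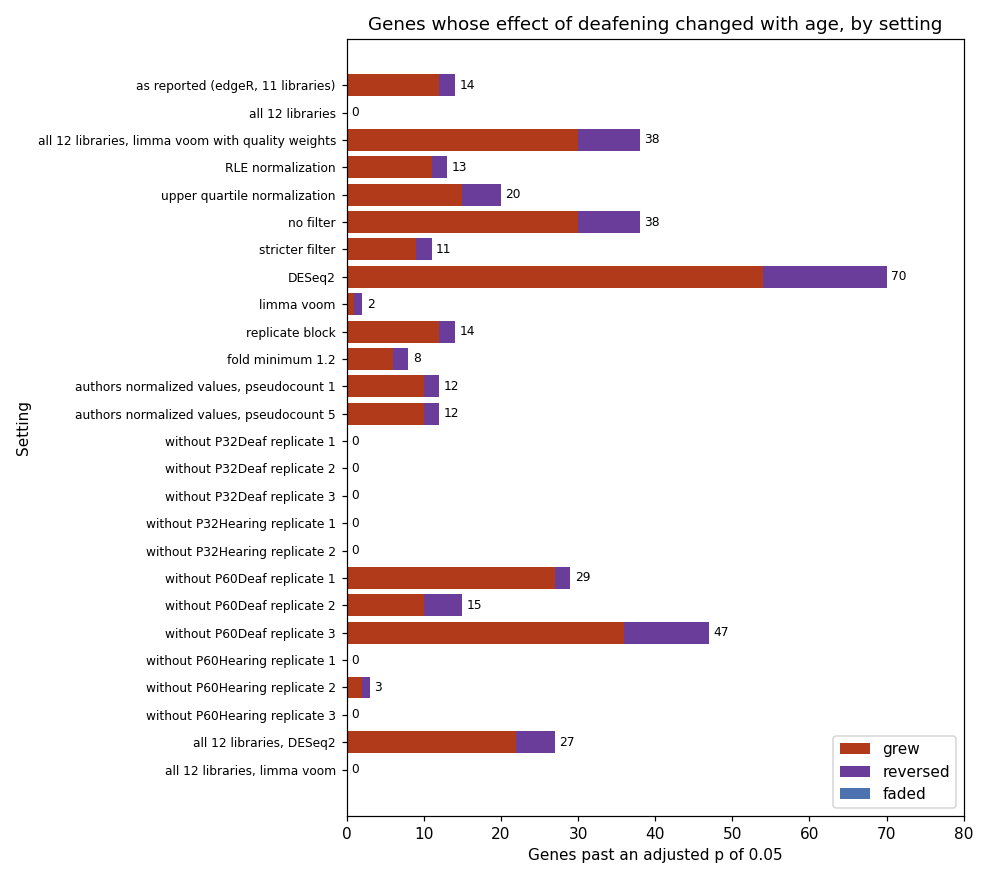
Number of genes whose change passed an adjusted p of 0.05 under each setting, by class. The bars run from 0 to 70, and no setting has a faded gene.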

How the data were processed

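RNA sequencing of whole spiral ganglia gave 12 libraries, each run on 3 lanes. The authors deposited raw counts of reads per gene for all 12, and a second table of normalized signal for 11, which P32 hearing replicate 3 has no column in. The submitters' processing notes list featureCounts and Subread 1.6.3, the aligner STAR 2.7.0b, DESeq2 1.32.0, and also Trimmomatic, SAMtools and bcl2fastq 2.20, without role or order. Build, annotation and strand setting were not given in the sources used here, so reads of overlapping, antisense or near-identical genes may be shared. Multiplied by 1 size factor per library, 100% of the deposited normalized values were whole reads within 0.1 and equal to the raw counts, so the edgeR test on raw counts is also the test on these recovered reads. That match paired 21829 symbols with 1 gene ID each. The 11054 IDs without a symbol hold 0.00632% of reads.

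Raw counts of 11 libraries (P32 hearing 2, other groups 3 each) were filtered with filterByExpr, scaled by TMM and fitted with edgeR 4.0.16 (glmQLFit, glmQLFTest, R 4.3.3), 1 mean per group. The change is the effect at P60 minus the effect at P32, and p-values were adjusted over all genes tested (Benjamini-Hochberg, threshold 0.05). CPM values use TMM library sizes. The precision of a low level follows from depth, 15646405 to 43453272 reads per library. The fit was tested on simulated data. Named genes are those past the threshold, by class and by list, filled to the 20 smallest p because fewer than 20 passed, and a fixed set of names, of which Sprr1a was not analysed here. The members and the 34 gene lists (1009 symbols, 853 tested) were chosen with earlier results of these data known, and lists overlap. The mitochondrial genome list had 0 members tested. Nothing states whether replicates came from separate animals or pools, so p-values measure the spread between these libraries.

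Alternatives were all 12 libraries, limma 3.58.1 voom with and without quality weights, DESeq2 1.42.0, RLE and upper quartile scaling, no filter, a filter of 1 CPM in 3 libraries, a fold minimum of 1.2, a replicate block, limma on log2 of the authors' normalized values with pseudocounts 1 and 5, and leaving out each library. DESeq2 and plain limma voom on 12 libraries were added after seeing the data. Promoters were searched with Python 3.11.15.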

Additional observations from a re-analysis of the deposited data

Results flagged for a closer look

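Each of the 14 genes below had an effect of deafening that differed between P32 and P60 by the test of the difference itself (edgeR adjusted p under 0.05, 11 libraries). Changes on the log2 scale were positive for Grm5 (3.06), Gpr83 (3.05), Atf3 (1.96), Lgals3 (1.95), Glipr2 (1.504), Dusp10 (1.37), Chl1 (1.35), S100a4 (1.27), Mt2A (1.23), Fabp7 (1.12), Dclk1 (1.10), Gfap (0.91) and Plk2 (0.86). The change was negative for Acan (-1.04). With all 12 libraries the edgeR adjusted p of these genes ran from 0.0756 to 0.692.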

How the results depend on the processing

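With 11 libraries and edgeR, 14 genes passed for the change (13 positive, 1 negative, 12 grown, 2 reversed). RLE scaling, the stricter filter and the authors' normalized values gave 13, 11 and 12, with each class within 1.5 times of those counts. Upper quartile scaling gave 20, of which 2 negative and 5 reversed. Without a filter there were 38 (32 positive, 6 negative, 30 grown, 8 reversed). DESeq2 gave 70 (60 positive, 10 negative, 54 grown, 16 reversed) and 1059 genes at P32. Limma voom gave 2 (1 positive, 1 negative, 1 grown, 1 reversed). A fold minimum of 1.2 gave 8 (7 positive, 6 grown), with 141 genes at P32 and 1258 at P60.

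With all 12 libraries edgeR gave 0 (0 positive, 0 negative, 0 grown, 0 reversed), with 805 at an unadjusted p under 0.05, and 56 genes at P32 and 578 at P60. Limma voom on 12 gave 0 in each class, with 712 unadjusted, and 53 and 610 genes. DESeq2 on 12 gave 27 (25 positive, 2 negative, 22 grown, 5 reversed) and 1299 genes at P60, with 694 adjusted p-values not given. Limma voom with quality weights on 12 gave 38 (35 positive, 3 negative, 30 grown, 8 reversed) and 2144 genes at P32. The cause of these differences was not tested.

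Leaving out 1 library, the count ran from 0 to 47 (positive 0 to 39, negative 0 to 8, grown 0 to 36, faded 0 to 0, reversed 0 to 11), with 30 to 2050 genes at P32 and 1959 to 3966 at P60. Without a P32 hearing library that group has 1 sample, assumed to vary like the others. Faded genes numbered 0 in every setting run.

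No called gene turned sign in any setting, and all settings reuse libraries by which these genes were chosen. Signs turned for genes with small changes. With 12 libraries by edgeR, DESeq2 and limma voom, Calb2 was 0.12, 0.11 and 0.079, Cd68 -0.0072, -0.020 and -0.013 and Nefl -0.13, -0.14 and -0.17. C3 was -0.0032 by DESeq2 and -0.024 by limma voom, and Cd68 -0.022 with quality weights. Leaving out 1 library, Cd68 ran from -0.063 to 0.18 and Nefl from -0.11 to 0.11. Cd68 was -0.063, -0.034 and -0.033 without P32 deaf replicate 1, P60 deaf replicate 3 or P60 hearing replicate 1, and Nefl -0.039 and -0.11 without P32 hearing replicate 2 or P60 deaf replicate 1.

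Whether replicate numbers pair the samples could not be decided from their correlations. Of 15 same-numbered pairs 2 correlated above 0.1 (range -0.10 to 0.15), and 6 of 11 libraries correlated best with their own number. The highest values were P32 deaf with P60 deaf replicate 3 (0.149) and replicate 2 (0.142). With 2 libraries in P32 hearing, their deviations from the group mean mirror each other. A replicate block gave 14 genes (13 positive, 1 negative), 12 of them shared with the fit without it, and put Nefl at -0.0065. With the block 3737 genes passed at P60, against 3321 without it.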

Other observations

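Other lists had these median changes, beside 0.00430 for all genes tested: 0.13 for 34 cell cycle genes (0 passed by edgeR, 0 at an unadjusted p under 0.05), -0.09 for 30 genes of fibroblasts and extracellular matrix (0 passed, 1 above and 1 below unadjusted) and -0.02 for 25 genes of endothelial and mural cells (0 passed, 0 above and 1 below). Over all 18057 genes, 659 were above and 461 below unadjusted. With all 12 libraries the cell cycle median was 0.39. For 25 hair cell list genes the median was -0.23 (0 passed, 1 above and 4 below).

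Among the 18 of 18057 genes with opposite effects at both ages at an unadjusted p under 0.05 were Drd2, a dopamine receptor, and Tyrp1, a melanocyte enzyme. Neither passed for the change (edgeR adjusted p = 0.306 and 0.416).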
